A study of Mus musculus with 2 samples.

Results

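The otic placode and prosensory regulators described here are 9 genes, Six4, Eya1, Eya4, Pax2, Pax8, Gata3, Dlx5, Dlx6 and Gbx2, of 21938 protein-coding genes on chromosomes 1 to 19, X and Y. Accessible chromatin around them was read from 1 ATAC-seq peak list per genotype, made from the P2 mouse organ of Corti, the sensory epithelium of the cochlea. In ATAC-seq the Tn5 transposase cuts open DNA and leaves sequencing adapters in it. The groups were WT mice and littermates homozygous for a knockout allele of Bmi1, a subunit of Polycomb repressive complex 1, on a C57BL/6J background. The organs of several mice of a genotype were pooled into 1 library, and the allele was lost in all cells of the animal rather than in the organ of Corti alone. There was no second library of either genotype, so no difference below was tested against the spread between animals, and no p-value compares the genotypes. A peak was assigned to a gene when its centre lay in the gene body or within 50 kb of it, and was called a promoter peak when its centre lay within 3 kb of any start site of the gene in GENCODE vM21 (GRCm38). By this rule 79 of 77596 peaks labelled WT and 81 of 100431 peaks labelled Bmi1-/- belonged to the 9 genes, in 1.39 Mb of sequence. Dlx5 and Dlx6 lie 9.24 kb apart and shared all 8 of their peaks in each list.

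The otic placode is the patch of ectoderm next to the hindbrain from which the inner ear forms. PAX factors mark it early, homeodomain proteins of the sine oculis family and EYA proteins act together as a DNA-binding factor and its coactivator, and DLX, GBX and GATA factors pattern the vesicle that it becomes. Several of these genes are used again when the prosensory domain of the cochlear duct, the source of hair cells and supporting cells, is set aside. Many such developmental regulators have GC-rich promoters and are known targets of Polycomb repression in other tissues.

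The names given to the peaks go against the genotype labels, since all names of the WT-labelled list start with the knockout's prefix and all names of the knockout-labelled list with that of WT. All directions below therefore rest on the genotype labels of the samples. At Bmi1 itself the strongest promoter peak held 17 reads over a background of 6.32 in the WT-labelled list and 29 over 9.58 in the knockout-labelled list, and a peak in the gene does not check the labels where the deleted part is not known. The most frequent background value was 6.32 reads (WT) and 8.04 reads (Bmi1-/-), and the lowest summits at that background held 13 and 15 reads. The −log10 p of a peak measures its summit against that local background, and the −log10 q is its value after adjustment within the library. Of 10 hair cell markers, 8 had a promoter peak labelled WT and 7 one labelled Bmi1-/-, and of 10 supporting cell markers 9 and 8 did. Of the 10 markers set for other cells, the counts were 6 and 7 for neurons, 6 and 8 for glia, 5 and 5 for mesenchyme, 3 and 2 for blood and macrophages, and 8 and 7 for endothelium. Over all protein-coding genes, 59.1% had a promoter peak labelled WT and 68.2% one labelled Bmi1-/-. The counts for hair cells and endothelium were equal, and 10 genes per set are too few to identify the tissue. Among the defining genes, Tmc1 (hair cell) and Sox10 (supporting cell) had no promoter peak in either list. The part of depth and of cell composition in the values below was not tested.

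The sequences on which the accessibility patterns turn are shown first. Each runs 5′ to 3′ on the plus strand of GRCm38, and is in lower case with matches to the searched motifs in capitals. Where peaks of both lists overlapped, the stretch lies within 60 bases of the middle of the bases that they share, and otherwise within 60 bases of the summit. The first set are promoter peaks that overlapped between the lists, at the start of Six4, in the first intron of Eya4, in an intron of Gata3 and upstream of Gbx2.
Six4 promoter, chr12:73113457-73113549: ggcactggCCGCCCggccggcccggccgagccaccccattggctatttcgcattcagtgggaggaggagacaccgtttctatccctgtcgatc
Eya4 first intron, chr10:23349360-23349480: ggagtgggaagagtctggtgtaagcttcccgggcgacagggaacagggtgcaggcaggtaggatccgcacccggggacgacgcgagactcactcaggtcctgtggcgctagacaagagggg
Gata3 intron, chr2:9879608-9879728: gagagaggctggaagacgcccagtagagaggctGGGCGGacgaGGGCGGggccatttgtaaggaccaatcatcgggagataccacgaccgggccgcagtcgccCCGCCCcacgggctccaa
Gbx2 promoter, chr1:89931551-89931671: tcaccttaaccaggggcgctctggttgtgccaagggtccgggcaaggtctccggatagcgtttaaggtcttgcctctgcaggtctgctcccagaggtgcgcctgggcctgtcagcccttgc
The Six4 stretch is shorter because only the bases upstream of the transcript are shown. The capitals in Six4 and Gata3 are GC boxes, GGGCGG on either strand, the core bound by SP and KLF factors. The next set are distal peaks that also overlapped between the lists, near Pax2, Gata3 and Gbx2.
Pax2 distal, chr19:44835613-44835733: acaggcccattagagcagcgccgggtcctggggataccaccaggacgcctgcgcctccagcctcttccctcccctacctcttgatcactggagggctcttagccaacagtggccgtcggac
Gata3 distal, chr2:9824310-9824430: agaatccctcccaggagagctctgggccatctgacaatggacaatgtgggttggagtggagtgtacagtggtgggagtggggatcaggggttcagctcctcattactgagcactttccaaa
Gbx2 distal, chr1:89940138-89940258: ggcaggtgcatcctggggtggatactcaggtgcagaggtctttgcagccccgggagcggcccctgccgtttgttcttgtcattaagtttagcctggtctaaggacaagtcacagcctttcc
The last set are peaks called in 1 list only, the Pax2 promoter in the WT-labelled list and a pair of Gata3 sites in the knockout-labelled list.
Pax2 promoter, chr19:44755661-44755781: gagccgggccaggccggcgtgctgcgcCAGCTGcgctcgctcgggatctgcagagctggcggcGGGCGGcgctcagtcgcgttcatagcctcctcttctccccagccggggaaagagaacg
Gata3 beyond the gene end, chr2:9852967-9853087: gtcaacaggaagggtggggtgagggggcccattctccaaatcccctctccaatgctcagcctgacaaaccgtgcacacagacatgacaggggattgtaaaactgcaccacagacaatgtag
Gata3 intron near the gene end, chr2:9860355-9860475: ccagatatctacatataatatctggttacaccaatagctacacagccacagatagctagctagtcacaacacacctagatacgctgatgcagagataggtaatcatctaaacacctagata
The Pax2 promoter stretch held 71.9% G and C and 15 CpG dinucleotides, and its capitals are an E-box, CAGCTG, and a GC box. The Gata3 sites seen in the knockout-labelled list alone held 53.7% and 39.7% G and C with 1 CpG each. The shared Gata3 intronic stretch held 66.9% and 11, but the shared Gata3 distal stretch held 53.7% and 0.

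Most of the 9 genes had an accessible promoter in both lists. A promoter peak was present for 8 of 9 in the WT-labelled list, against 59.1% of all protein-coding genes, and for 7 of 9 in the knockout-labelled list, against 68.2%. Six4, Eya4, Pax2, Pax8, Gata3, Dlx6 and Gbx2 had one in both lists, 7 of 9 where the background was 53.0%, and in 6 of these the promoter peaks overlapped between the lists, against 40.4%. The exact binomial interval of 6 of 9 ran from 29.9% to 92.5%, so that the share of the 9 genes cannot be told from the background. Dlx5 was the only one of the 9 without a promoter peak in either list, a state found in 25.7% of all genes. Eya1 was the only one with a promoter peak labelled WT and none labelled Bmi1-/-, a state found in 6.10% of all genes. With peaks of −log10 q of at least 1.3, a promoter peak was present for 6 genes in the WT-labelled list (background 45.3%) and for 7 in the knockout-labelled list (background 60.4%).

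**Figure D1:**
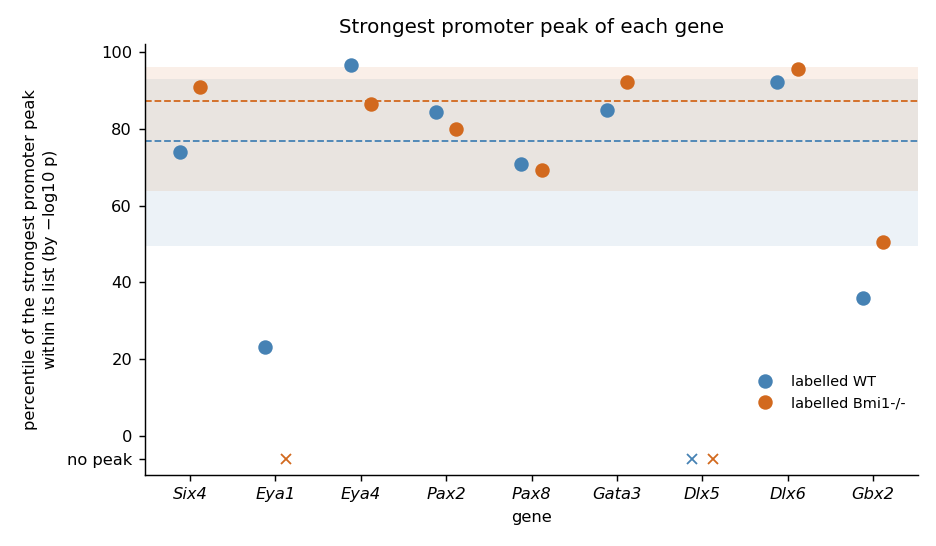
Strongest promoter peak of each of the 9 genes (horizontal axis), placed by −log10 p within its own list (vertical axis, percentile), with WT in blue and Bmi1-/- in orange. Dashed lines are the medians over all genes (76.8 labelled WT, 87.3 labelled Bmi1-/-), shaded bands their quartiles, and crosses mark genes with no promoter peak. In the WT-labelled list Eya4 stands above the upper quartile of 92.9 and Eya1 and Gbx2 lie below the lower quartile of 49.4, and Gbx2 is also below that of 63.8 in the knockout-labelled list.

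To set the lists side by side, each strongest promoter peak was ranked by its −log10 p within its own list, from 0 for the weakest peak to 100 for the strongest. Over all genes the median was 76.8 in the WT-labelled list and 87.3 in the knockout-labelled list, and over the genes of the set that had a peak it was 79.0 and 86.4. Of the 8 genes with at least 1 promoter peak, Six4, Gata3, Dlx6 and Gbx2 had the higher rank in the knockout-labelled list (4 of 8), whereas this held for 68.6% of all genes. The exact interval of 4 of 8, from 15.7% to 84.3%, included that background.

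Six4 encodes a homeodomain factor of the sine oculis family that binds EYA coactivators. All 3 of its promoter peaks labelled WT overlapped a peak labelled Bmi1-/-. At least 3 overlapping promoter peaks, the count at Six4 itself, were found at 1 of the 9 genes and at 1.66% of all genes. The exact interval of 1 of 9, from 0.281% to 48.2%, included that share. The peak at the start site, chr12:73113353-73113621 (centre at −31 bp), held 20 reads at its summit in the WT-labelled list (exact Poisson interval 12.2 to 30.9) over a background of 6.86. Its counterpart, chr12:73113357-73113630, held 30 reads (20.2 to 42.8) over 11.3 in the knockout-labelled list, with the summits 12 bp apart. Reads and background were thus both higher in the knockout-labelled list, and the fold enrichment, the ratio of the 2 with 1 added to each, was 2.67 and 2.51. The peak in the coding exon, chr12:73112543-73113043, had a fold enrichment of 2.56 at percentile 61.5 in the WT-labelled list. Its counterpart, chr12:73112440-73112871, had 2.67 at percentile 90.8 and was the strongest promoter peak of Six4 in the knockout-labelled list. Fold enrichment thus differed little between the lists where the rank differed more. The peak in the Six4 intron, chr12:73111706-73111905, ranked 27.0 in the WT-labelled list and 66.2 in the other. Farther out, the region held 5 peaks labelled WT and 4 labelled Bmi1-/- without a counterpart. The strongest were chr12:73069176-73069409, 44.2 kb beyond the start (percentile 87.8, labelled WT), and chr12:73145325-73145643, at −32.0 kb in an intron of Mnat1 (88.6, labelled Bmi1-/-). A pair that shared 22 bp near chr12:73053833-73053854 lay within 3 kb of the start of a neighbouring gene, and ranked 30.7 and 90.1.

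Eya1 and Eya4 encode EYA proteins, coactivators with phosphatase activity. Loss of EYA1 stops inner ear formation early and causes branchio-oto-renal syndrome in humans, and EYA4 is mutated in a progressive dominant deafness. Over the whole lists, 24.8% of the peaks labelled WT and 18.5% of those labelled Bmi1-/- overlapped a peak of the other list. Eya1 had 10 peaks labelled WT and 11 labelled Bmi1-/-, and none of them overlapped. Eya4 had 9 and 10, of which 1 in each list overlapped, and these counts are too small to be told from the whole-list shares. Of 5971 genes with at least 10 peaks in each list in their region, 1.44% had no overlap at all. Of the 9 genes, 4 had that many peaks, and Eya1 alone of these had no overlap. The exact interval of 1 of 4, from 0.631% to 80.6%, included the share of all genes. The only promoter peak of Eya1, chr1:14309637-14309895 in a UTR exon 70 bp from a start site, was labelled WT and held 16 reads (9.15 to 26.0) over a background of 6.32. It was a weak peak. Its fold enrichment was 2.32, its −log10 q was 0.904 and its percentile 23.3. The nearest peak labelled Bmi1-/- was 21095 bp away, and the nearest peak centre of that list to any Eya1 start site lay 3868 bp from it. The strongest Eya1 peaks were intronic, chr1:14274714-14274938 in the WT-labelled list (21 reads over 6.32, percentile 87.8) and chr1:14239107-14239839 in the knockout-labelled list (25 reads over 8.04, percentile 88.6). A second intronic site came close in both lists, with peaks at chr1:14287934-14288165 and chr1:14288282-14288541 that were 116 bp apart. These ranked 70.8 and 81.3, and they are the nearest that Eya1 peaks of the lists came to each other.

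Eya4 had the strongest promoter peak of the 9 genes in the WT-labelled list. This peak, chr10:23348894-23349647 in the first intron, held 24 reads (15.4 to 35.7) over a background of 6.32, a fold enrichment of 3.41 at percentile 96.5. Its counterpart, chr10:23349194-23349696, held 25 reads (16.2 to 36.9) over 8.38, a fold enrichment of 2.77 at percentile 86.4. The reads at the summit were nearly equal and their intervals overlapped, and it was the background that was higher in the knockout-labelled list. The ratio of the fold enrichments, Bmi1-/- to WT, was 0.812, at percentile 8.39 of the 6439 genes whose strongest promoter peaks overlapped, for which the median was 1.05 (quartiles 0.932 and 1.20). In the knockout-labelled list further promoter peaks flanked it at chr10:23348368-23348587 (percentile 73.0) and chr10:23350455-23350718 (73.6), with gaps of 306 and 807 bp to the nearest WT-labelled peak. The rest of the Eya4 region, the longest of the set at 348 kb, was sparse, with 2.59 peaks per 100 kb in the WT-labelled list and 2.88 in the other. The strongest of these, chr10:23080720-23081000 beyond the gene end (percentile 92.1), was labelled WT and had no counterpart.

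Pax2 and Pax8 encode paired-box factors of early otic ectoderm, and Pax2 is later needed for outgrowth of the cochlear duct. Pax2 was the only gene of the set with promoter peaks in both lists and no overlap between them. In the WT-labelled list, chr19:44755533-44755942, centred at −307 bp from the start site, held 23 reads (14.6 to 34.5) over a background of 7.74, and chr19:44756749-44757151 in a UTR exon held 21 (13.0 to 32.1) over 7.66. They ranked 84.2 and 64.9, and no peak labelled Bmi1-/- was called within 4698 bp of either. The only promoter peak labelled Bmi1-/-, chr19:44761850-44762063 in an intron 2042 bp downstream of a start site, held 26 reads (17.0 to 38.1) over 9.74 and ranked 79.9. The peak lists hold no reads outside peaks, so it is not known how many reads the knockout-labelled list had at the Pax2 start. Near the end of the gene, in contrast, the lists held an overlapping pair of high rank. The peaks chr19:44835598-44835833 (WT) and chr19:44834838-44835748 (Bmi1-/-) shared 151 bp and ranked 89.4 and 95.1, with 23 and 32 reads at the summits. The latter was the third strongest peak of the 9 regions in the knockout-labelled list outside promoters of the 9 genes. Both centres of the pair lay within 3 kb of a start site of another gene, 1700039E22Rik. A further intronic peak, chr19:44796199-44796423, was labelled Bmi1-/- and had no counterpart (26 reads over 8.04, percentile 91.4).

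The Pax8 promoter held a wide peak in the WT-labelled list, chr2:24474910-24475620, with 19 reads (11.4 to 29.7) over 6.32. It overlapped chr2:24474640-24475107, with 20 reads (12.2 to 30.9) over 8.04. The overlap was 198 bp, but the summits lay 765 bp apart, the largest distance among the 21 overlapping pairs of the regions. Fold enrichment was 2.73 and 2.32, at percentiles 70.8 and 44.0. The strongest promoter peak of Pax8 labelled Bmi1-/- was another one, chr2:24442867-24443101 in a coding exon 2916 bp from a start site and so close to the 3 kb limit, at percentile 69.3. Of the 4 overlapping pairs of the Pax8 region, 3 ranked lower in the knockout-labelled list, and the peaks at chr2:24502970-24503187 and chr2:24502780-24503072 ranked 70.8 and 6.15. No Pax8 peak reached the ranks of the strongest peaks of the other regions, and the highest of the region, chr2:24407923-24408259 near Psd4, ranked 82.0 in the knockout-labelled list.

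Gata3 encodes a zinc-finger factor of the prosensory domain and of auditory neurons, and loss of 1 copy causes hypoparathyroidism with deafness and renal defects in humans. Its region held the most peaks in the knockout-labelled list, 14 against 11 in the WT-labelled list, and 3 of each overlapped. The intronic promoter peaks chr2:9879540-9879797 and chr2:9879479-9879825 had summits 2 bp apart, the closest pair of the set. They held 27 reads (17.8 to 39.3) over 9.84 in the WT-labelled list and 33 (22.7 to 46.3) over 11.9 in the other, and ranked 84.9 and 90.9. Nearer to the first start site of Gata3, and downstream of it, lay a pair at the noncoding exon of 9230102O04Rik. There chr2:9889144-9889541 held 17 reads (9.90 to 27.2) and chr2:9889004-9889621 held 30 (20.2 to 42.8). The fold enrichment there was 2.30 and 2.79, a ratio of 1.21, and the ranks were 28.2 and 92.0. The 2 highest-ranked peaks without a counterpart in the knockout-labelled list were in the Gata3 region. The next of the 9 regions ranked 91.4 at Pax2 and 88.6 at Eya1 and Six4. The peak chr2:9852616-9853303, past the gene end, held 32 reads (21.9 to 45.2) over 8.72, at percentile 96.7, and its fold enrichment was 3.40 with a −log10 q of 5.80. The peak chr2:9860265-9860524 in an intron held 29 reads (19.4 to 41.6) over 8.04 at percentile 95.6, and the values were 3.32 and 4.98. The nearest peaks labelled WT were 5682 and 1041 bp away. These were the 2 of 60 unpaired peaks labelled Bmi1-/- of the 9 regions that lay in the top 5% of their list. Of all unpaired peaks of that list, 1.28% did. The exact interval of 2 of 60 ran from 0.406% to 11.5% and included that share. In the WT-labelled list none of 58 unpaired peaks did, against 1.61%, with an upper bound of 6.16%. A distal pair had the opposite order, with chr2:9824269-9824506 at percentile 94.1 (24 reads over 6.90) and chr2:9824186-9824471 at 66.2 (22 reads over 8.10), and summits 13 bp apart.

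**Figure D2:**
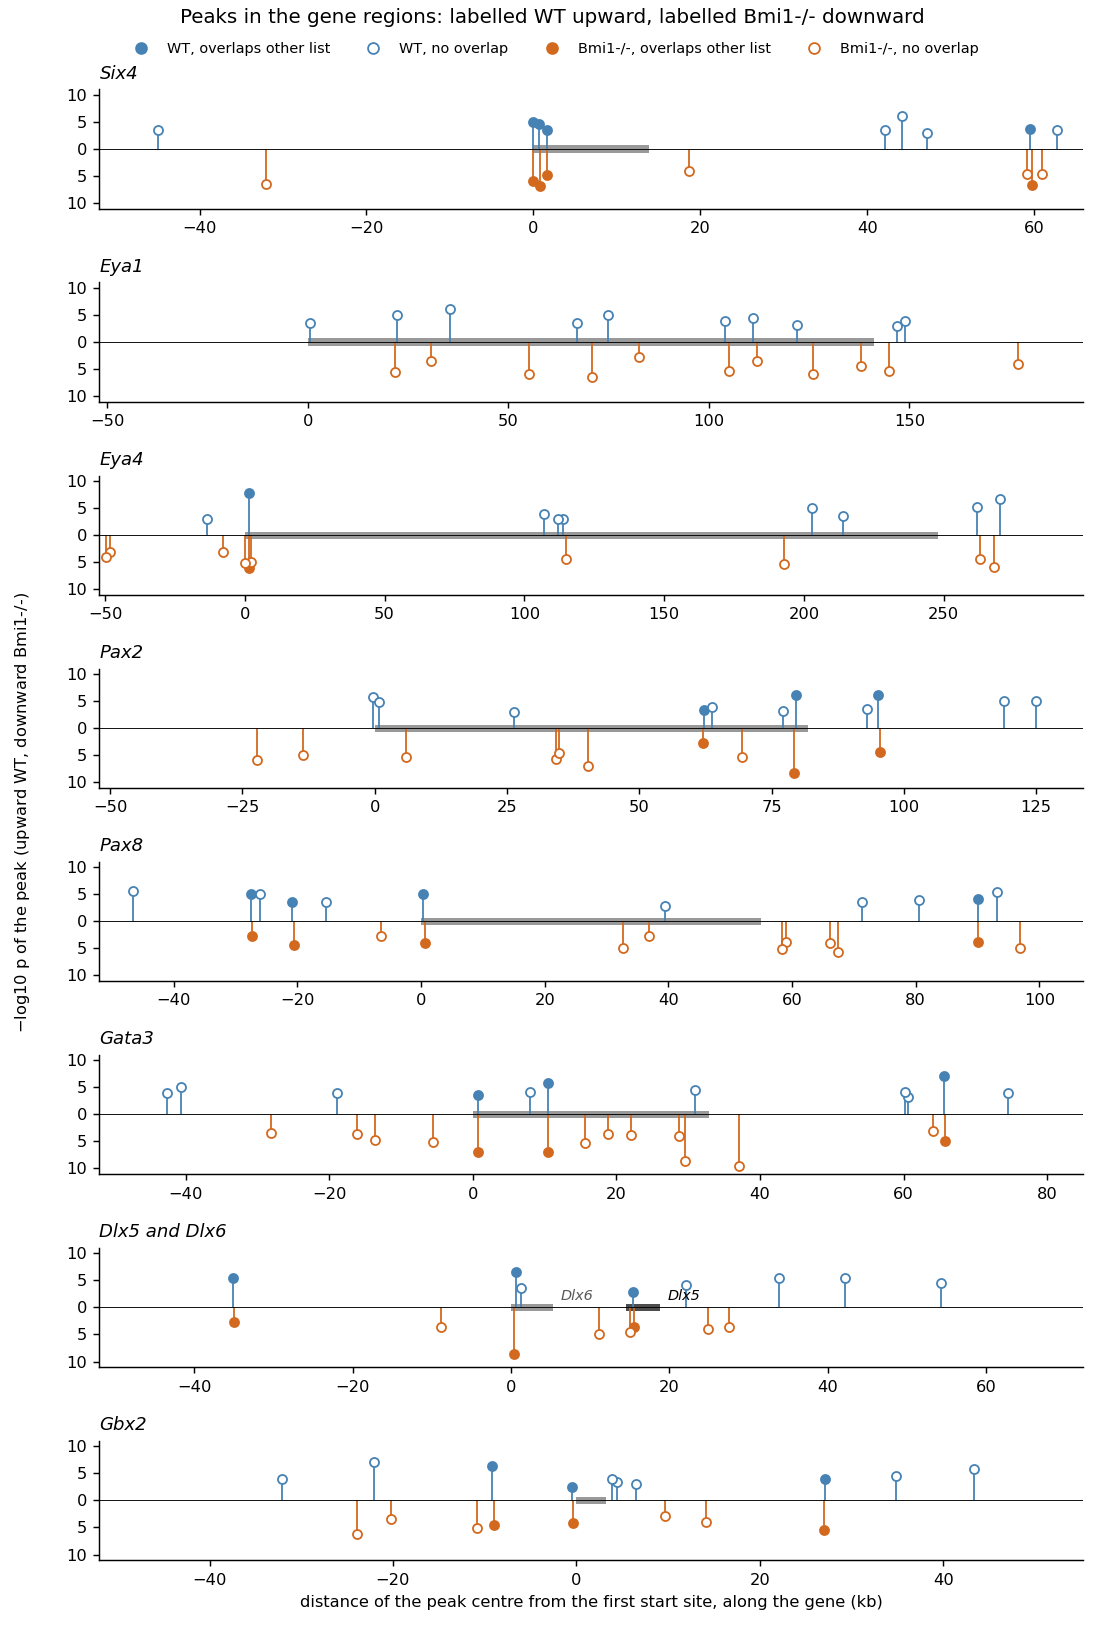
Peaks of the gene regions by the distance of their centre from the first start site along the gene (horizontal axis, kb) and their −log10 p (vertical axis), drawn upward for the WT-labelled list and downward for that labelled Bmi1-/-. Filled points overlap a peak of the other list and open points do not, and grey bars are the genes. Six4 shows 3 filled points at its start in both directions, Eya1 none, and Gata3 the tallest open points, at −log10 p of 9.56 and 8.62 in the knockout-labelled list.

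Dlx5 and Dlx6 encode homeodomain factors of the dorsal otic vesicle, needed for the vestibular organs, and are transcribed from opposite strands of the same locus. The Dlx6 promoter was among the strongest of the set in both lists. The peak chr6:6863568-6864257 labelled WT held 22 reads (13.8 to 33.3) over 6.32, and chr6:6863482-6863970 labelled Bmi1-/- held 29 (19.4 to 41.6) over 8.04. Fold enrichment was 3.14 and 3.32 at percentiles 92.1 and 95.6, and the ratio of 1.06 lay at percentile 50.6 of all genes, close to their median. No peak centre came within 3 kb of a Dlx5 start site, but the nearest lay just outside, at 3302 bp in the WT-labelled list and 3190 bp in the other. These intronic peaks, chr6:6878646-6878886 and chr6:6878753-6879003, overlapped by 134 bp and were weak, at percentiles 5.60 and 33.3. The Dlx5 call therefore depended on where the promoter limit was placed. The other overlapping pair, chr6:6828090-6828335 and chr6:6828185-6828419 in an intron of Dlx6os1, ranked 81.0 in the WT-labelled list and 6.15 in that labelled Bmi1-/-. Its ratio of fold enrichments, 0.694, was the lowest of the 21 pairs.

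Gbx2 encodes a homeodomain factor of the dorsal and medial otic vesicle. Its promoter peaks were weak. The overlapping pair at −433 and −377 bp from a start site, chr1:89931512-89931711 and chr1:89931388-89931724, held 17 reads (9.90 to 27.2) in the WT-labelled list and 22 (13.8 to 33.3) in the other. Fold enrichment was 1.86 and 2.30, and the ratio of 1.23 was the highest of the 21 pairs although the intervals of the reads overlapped. The first of these peaks was close to the threshold of calling, at percentile 0.586. The strongest promoter peak in the WT-labelled list was another one, chr1:89927216-89927436, centred 1859 bp from a start site, with 21 reads (13.0 to 32.1) over 8.70, a fold enrichment of 2.27 and percentile 35.9. The strongest distal peak of Gbx2 ranked above its strongest promoter peak in each list, at 94.1 against 35.9 labelled WT and 86.9 against 50.5 labelled Bmi1-/-. The upstream pair chr1:89940133-89940523 and chr1:89940007-89940263 ranked 90.3 and 62.2. The strongest distal peak, chr1:89953022-89953521 in an intron of Asb18, was labelled WT and held 26 reads (17.0 to 38.1) over 7.92 at percentile 94.1. It had no counterpart, though a peak labelled Bmi1-/- at chr1:89954892-89955254, 1370 bp away, ranked 86.9.

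Over the 9 regions together, 21 of 79 peaks labelled WT (26.6%, exact interval 17.3% to 37.7%) overlapped a peak labelled Bmi1-/-, against 24.8% of the whole list. In the other direction 21 of 81 did (25.9%, 16.8% to 36.9%), against 18.5%. Both intervals included the background. Among peaks with −log10 q of at least 1.3, the shares were 12 of 35 (34.3%) against 31.2%, and 16 of 60 (26.7%) against 23.2%, when set against the full other list. Such peaks made up 44.3% of the peaks labelled WT of the 9 regions (35 of 79, background 52.4%) and 74.1% of those labelled Bmi1-/- (60 of 81, interval 63.1% to 83.2%, background 62.9%). The lower bound of the latter share lay just above its background, while the interval covers counting error only. The median rank of the region peaks was 40.1 in the WT-labelled list, below the middle of that list. In the knockout-labelled list it was 62.9, above the middle. Ranks were taken within each list, and the difference was not tested. The number of peaks per 100 kb had a median of 7.60 in both lists over the 9 genes. This is the value of Dlx6 in each list, and Dlx5 counts the same peaks again. The 9 genes ranged from 2.59 to 9.69 labelled WT and from 2.88 to 10.5 labelled Bmi1-/-. Over all genes the median was 5.20 labelled WT (quartiles 1.91 and 7.97) and 6.56 labelled Bmi1-/- (2.90 and 9.70). The median of the 9 genes lay between these quartiles in both lists.

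**Figure D3:**
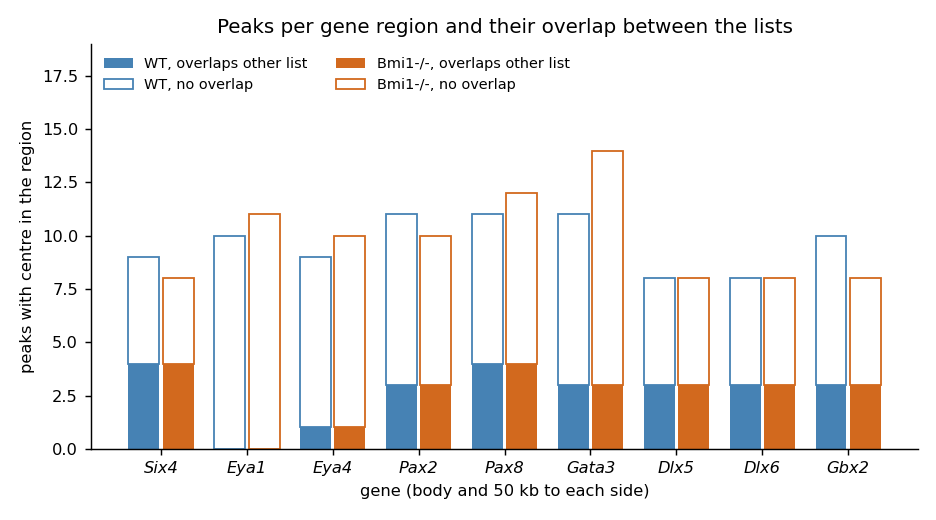
Number of peaks in each gene region (vertical axis) in the WT-labelled list (blue) and that labelled Bmi1-/- (orange), split into peaks that overlap the other list (filled) and peaks that do not (open). Dlx5 and Dlx6 show the same peaks. Eya1 has no filled part, with 10 and 11 peaks, and Gata3 has the tallest bar, 14 peaks labelled Bmi1-/-.

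Of the 21 overlapping pairs, 9 lay in promoters of the 9 genes, and 7 of these ranked higher in the knockout-labelled list. Over all overlapping pairs at protein-coding promoters this held for 67.2%, a share inside the exact interval of 7 of 9. Of the 12 pairs outside these promoters, 5 ranked higher in the knockout-labelled list, against 51.4% of all other pairs and with an interval from 15.2% to 72.3%. Fold enrichment was higher in the knockout-labelled list in 11 of 21 pairs, against 47.4% of all pairs, and the median ratio was 1.01. The pairs come from the same 2 libraries and are not replicates, and the difference between promoters and distal sites was not tested. Promoter peaks of the 9 genes had a median rank of 35.9 labelled WT (17 peaks) and 74.6 labelled Bmi1-/- (16 peaks), where all promoter peaks had 56.8 and 65.4. Their peaks outside promoters had 42.6 (62 peaks) and 62.2 (65 peaks), against 47.0 and 44.0 over all peaks outside promoters.

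**Figure D4:**
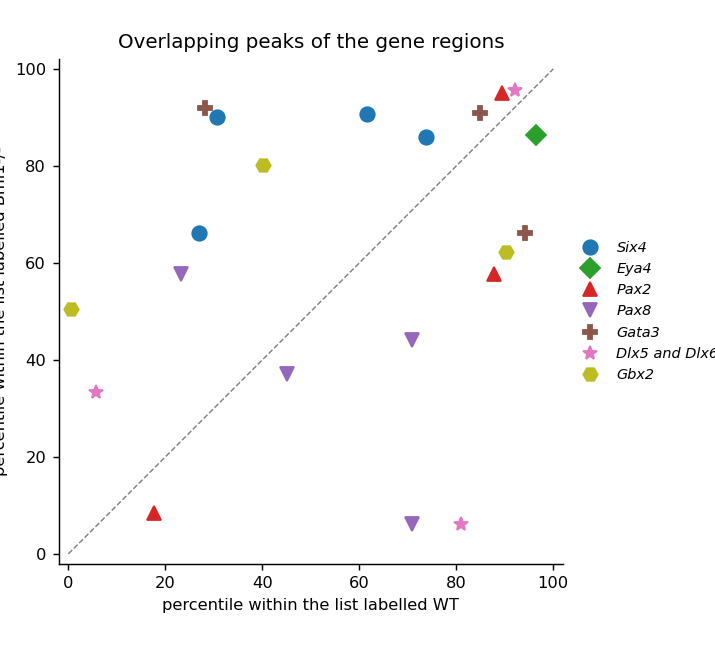
Percentile of each of the 21 overlapping pairs of peaks in the WT-labelled list (horizontal axis) and in that labelled Bmi1-/- (vertical axis), with a marker for each gene and the line of equal rank dashed. All 4 Six4 pairs lie above the line, and 3 of the 4 Pax8 pairs lie below it.

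GC content was higher at promoter peaks and at overlapping peaks than at the other peaks of the regions, in both lists. Within 100 bp of the summit, the peaks of the 9 regions had a median GC content of 54.2% in both lists, against 52.7% over all peaks in both. Their promoter peaks had 62.7% labelled WT and 59.2% labelled Bmi1-/-, and all peaks within 3 kb of a protein-coding start site 58.7% in both. Peaks of the 9 regions that overlapped between lists had 58.7% and 59.2%, and those without a counterpart 51.2% and 52.2%. Both strands were searched for short motif cores, none of which contains another. The homeodomain core TAATTA, which DLX and GBX proteins can bind, had no match in 79 and 81 peaks, which allows a share of up to 3.80% and 3.70%, and it was present in 1.58% and 1.46% of all peaks. The GATA core AGATAA was found in 6.33% and 4.94% of the peaks of the 9 regions, and in 6.04% and 5.84% of all peaks. The GC box was found in 11.4% and 14.8%, where the share over all peaks was 11.3% in both lists. The E-box CAGCTG was found in 16.5% and 7.41%, against 13.1% and 13.5%. The SOX core ACAAAG was found in 10.1% and 14.8%, where all peaks had 11.6% in both lists, and the TEAD core GGAATG in 6.33% and 3.70%, against 10.2% and 10.3%. The AP-1 motif TGANTCA was found in 3.80% and 3.70%, against 5.12% and 5.24%. The PAX core GCGTGAC had a match in 1 peak labelled WT (1.27%) and in none labelled Bmi1-/-, against 0.803% and 0.761%. The sine oculis family core TCAGGTT, at 2.70% and 2.82% of all peaks, and the CTCF motif, at 0.201% and 0.244%, had no match in the peaks of the 9 regions. RefSeq promoters of GRCm38.p6 (300 bases around a start) were matched by symbol for 6 of the 9 genes, and Eya1, Dlx5 and Dlx6 had no entry. Their GC content ranged from 54.7% (Pax2) to 71.7% (also Pax2), against a median of 52.7% over 32851 promoters. A GC box was present in at least 1 promoter of each of the 6 genes, though the Pax2 promoter at chr19:44746351-44746650 had none. Over all promoters 35.7% held one, a share counted per promoter and not per gene. TCAGGTT was present in 1 Six4 promoter and in 4.07% of all promoters.

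The other genes of the otic network were read by the same promoter rule over a list of 60. A promoter peak was present for 47 in the WT-labelled list and for 54 in the knockout-labelled list, and 29 had overlapping ones. Of the 55 with at least 1 such peak, 38 (69.1%) ranked higher in the knockout-labelled list, a share near the 68.6% of all genes. Otx1, a homeodomain factor needed for the lateral semicircular canal, was the only one with a peak labelled WT alone. Of all genes, 6.10% were in that state. A peak labelled Bmi1-/- alone was present for 8 of 60 (13.3%), against 15.2% of all genes. These were Six3, Six5, Hmx3, Neurog1, Neurod1, Otx2, Irx3 and Etv4, and the strongest of their peaks was that of Six5 at percentile 96.0, followed by Neurog1, a proneural factor, at 90.2. Six6, Pax3, Sox10, Gbx1 and Lfng had none in either list, a state found in 25.7% of all genes. The highest ranks in the WT-labelled list were those of Notch1 (99.9), Irx5 (99.5) and Etv5 (99.5), and in the knockout-labelled list those of Notch1 (99.8), Etv5 (99.8) and Hey2 (98.0). Notch1 is the receptor of lateral inhibition between hair cells and supporting cells, Hey2 one of its targets, and Etv5 a target of FGF signalling. None of the 9 genes reached these ranks, and the highest were Eya4 at 96.5 labelled WT and Dlx6 at 95.6 labelled Bmi1-/-.

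**Figure D5:**
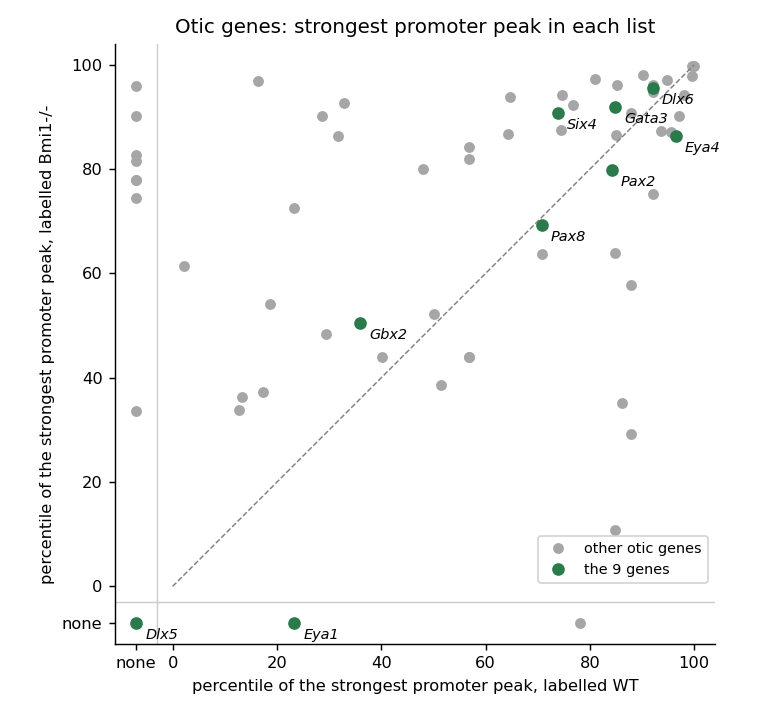
Percentile of the strongest promoter peak in the WT-labelled list (horizontal axis) and in that labelled Bmi1-/- (vertical axis) for the 9 genes (green, named) and 60 other otic genes (grey). Genes without a promoter peak in a list are set at none, and the dashed line marks equal rank. The 7 genes with promoter peaks in both lists lie along the line, Eya1 falls in the row without a peak labelled Bmi1-/-, and 13 grey genes lack a peak labelled WT, of which 8 have one labelled Bmi1-/- and 5 have none in either list and are drawn at 1 point.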

How the data were processed

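ATAC-seq was performed on the organ of Corti of WT and Bmi1-/- mice, and samples were grouped by the genotype in the labels. The authors removed adapters, used BWA-MEM for mapping and MACS2, once per library, for peak calling. The submitters' processing notes name FastQC, BWA, MACS2, HOMER and mm10, and the MACS2 version and options are not given in the sources used here. The deposited fold enrichment is a ratio of summit pileup to local background, each with 1 added. The deposited −log10 p and −log10 q come from that library's peak calling. The deposited score, 10 times the −log10 p, and the strand, name and summit offset were deposited as other columns, of which the names served only for the prefix check.

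Analysis was limited to chromosomes 1 to 19, X and Y (77596 of 77826 labelled WT, 100431 of 100668 labelled Bmi1-/-). The lowest deposited −log10 p was 2.00 and 2.01. Summit reads and background were solved from fold enrichment and −log10 p, a step tested on simulated data. An overlap was at least 1 bp. Intervals at the 95% level are exact binomial or Poisson and cover counting error only. Python 3.11.15 with numpy 2.4.6, pandas 2.3.3, scipy 1.17.1 and matplotlib 3.10.9 was used. Annotation was GENCODE vM21, and sequences were read from GRCm38.

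The 9 genes and all lists were chosen with earlier results of these data known. Named peaks were, for each gene, the strongest promoter peak of each list, the strongest overlapping peaks elsewhere, and up to 2 peaks without overlap. Other peaks, the pairs with the widest or closest values among them, were chosen after their values were seen. The cut-offs of 3 overlapping promoter peaks, 10 region peaks and the top 5% were not planned. They are met by Six4, Eya1 and Gata3, the genes they were used to describe, so the shares beside them are descriptive only. Markers of 7 cell types, 10 genes each, were read by the same promoter rule and did not settle which cells were present. The study's RNA-seq and ChIP-seq were not used here.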

Additional observations from a re-analysis of the deposited data

How the results depend on the processing

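The limits of these values are the single library per genotype, the peak name prefixes that go against the labels, and the absence of reads outside peaks, so that a site without a peak is not a site without reads. Most region peaks were weak, with 15 to 27 summit reads labelled WT and 17 to 33 labelled Bmi1-/-, and depth limits what a missing overlap means. With a −log10 q of at least 5, a promoter peak was left for 0 of the 9 genes in either list, 0 overlapped, 0 genes ranked higher in the list labelled Bmi1-/-, and the regions held 0 peaks labelled WT and 1 labelled Bmi1-/- (overlap 0.00% of 1, not computable for WT). Of the 60 other otic genes, 3 labelled WT, 10 labelled Bmi1-/- and 2 overlapping were left. With both lists kept to a −log10 q of 1.3 or more, the regions held 35 peaks labelled WT, and the overlapping share labelled Bmi1-/- was 16.7%. Flanks of 10 kb gave 41 and 52 peaks, and flanks of 100 kb gave 129 labelled Bmi1-/-. The thresholds and flanks change by construction how many peaks enter. A reciprocal overlap of 50% kept the peaks at 79 and 81 and lowered the overlapping share to 15.2% and 14.8%, since 12 in place of 21 counted as overlapping in each list. With 50 bp in place of 100 bp to each side of a summit, the shorter window held the GC box in 4 peaks labelled WT, the SOX core in 4 labelled WT and 7 labelled Bmi1-/-, the TEAD core in 3 and 1, the AP-1 motif in 1 and 1, and the E-box in 3 labelled Bmi1-/-. The other motif counts stayed within 1.5 times, and the medians of GC content and CpG ratio within the spread of the peaks. The other settings, among them lists trimmed to an equal number of peaks, promoters of 1 kb, protein-coding transcripts and summit placement, left the counts within 1.5 times and the values within their intervals. No paired analysis was possible because each genotype has 1 library.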
